A study of Drosophila melanogaster with 12 samples.

Results

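Odorant-binding proteins are small secreted carriers that support cells release into the fluid around the dendrites of chemosensory neurons, where they bind hydrophobic odorants and pheromones. Several of them define the antenna, and others are made by the fat body and other head tissues. Described here are 9 genes of this family outside the Obp56 group: Obp83a, Obp83b, lush, Obp69a, Obp84a, Obp28a and Obp19d, known from the antenna, and Obp99a and Obp99b, known also from outside it. The array annotation assigned a probe set to 8 of the 9 genes, 1 each, among 10844 genes named by the array's 14010 probe sets. Obp83a, for which no probe set was found, is not analysed here. The genes were chosen by name, with the signals and the aggressive minus neutral differences of these same arrays already known and with no signal threshold. Levels, counts and adjusted p-values therefore describe the genes and are no independent evidence about them.

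RNA came from heads of male Drosophila melanogaster of Canton-S, a laboratory wild-type strain, at 5 days of age and generation 21 of selection. Of the 4 populations, each with 3 arrays, aggressive I and aggressive II were selected for more male fighting. The neutral populations I and II had been selected for less and, by the study's own account, had not responded significantly. All 4 share the strain, sex, age and tissue. Males were frozen in pools of about 120 and stored in pools of about 40, and no label says whether a population's arrays hold separate cultures, and p-values may then measure technical spread only. The line label of 2 neutral I arrays lacks the word for selection that the others carry, and the titles were followed.

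Values are Affymetrix MAS5 signals, and the number of arrays and populations limits their precision. Median signal per array ran from 962.4 to 1050.4, and arrays of a population correlated at r = 0.954 to 0.971 over 8379 probe sets, against 0.946 to 0.970 between populations. The head label was checked against markers. Eye markers summed to between 411759 and 536340 per array, with Arr1, Arr2 and trp among them. Glial repo and neuronal elav passed the filter used below. Of the neuron markers 4 of 7 probe sets passed, and those of brp did not. Antennal markers were dim: of the 14 listed antennal and pheromone-pathway genes with a probe set, 3 passed that filter (Antdh, Os-C and a10). Orco, the co-receptor of most odorant receptors, averaged 274 and 228 in the aggressive populations I and II, beside 199 and 205 in the neutral ones. Snmp1, a membrane protein of pheromone-sensing neurons, averaged 335 and 503, beside 382 and 383, in the same order. Of the accessory gland markers, 1 of 11 probe sets passed, and of the testis markers 5 of 13. Of the midgut markers 8 of 12 passed, so markers of other tissues were not absent. The 8 control probe sets for mouse and yeast genes, which flies lack, ranged from 12.4 to 480 with a median of 120.

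**Figure D1:**
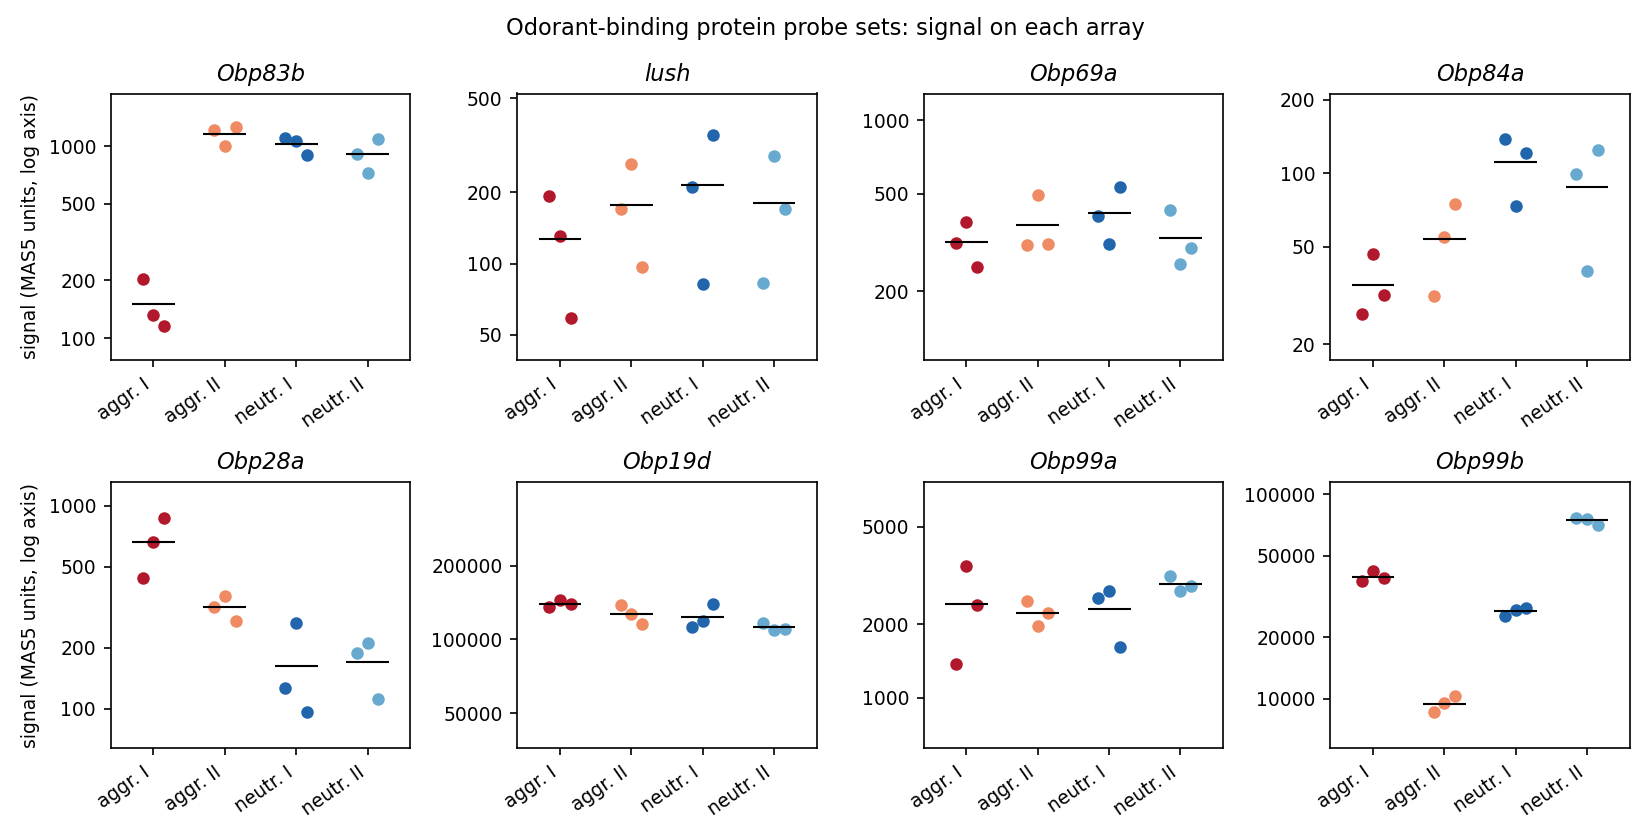
MAS5 signal (log axis, its own range in each panel) of the 8 odorant-binding protein probe sets on each of the 12 arrays. Points are arrays, bars are population means of 3 arrays, and the aggressive populations I and II stand left of the neutral populations I and II. Obp83b sits between 116 and 205 in aggressive I and above 724 elsewhere, and the 4 populations of Obp99b do not overlap.

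Differences were taken on log2(signal + 94.6), centred on each array's median, a scale that understates changes of dim probe sets. Of 13966 probe sets that are not controls, the 8379 with a mean log2 value above the 40th percentile were tested with limma, and a difference is called here at a Benjamini-Hochberg adjusted p under 0.05 over all of them. Obp83b, Obp99a, Obp99b and Obp19d passed this filter. Obp83b stands just inside it, at percentile 41.8, which it reached through the 3 populations where it was high. Obp69a stands nearest outside, at percentile 30.1, with Obp28a at 25.7, lush at 15.4 and Obp84a at 3.48. For these 4 the values come from a fit of all 13966 probe sets.

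With the 2 populations of each regime together and population as a random block, 0 of the 4 filtered genes were called by limma, beside a background of 0.191% of all probe sets called, and 1, Obp99b, had an unadjusted p under 0.05, as did 6.85% of all. In the fit without the filter 0 of 8 were called (background 0.0716%) and 3 had an unadjusted p under 0.05 (6.62% of all). Over the 8 the median log2 difference was -0.18, with 2 above 0, beside 0.014 over all probe sets. No gene of the 8 passed as a difference of selection regime. The differences that were called lay instead between single populations, in Obp83b and Obp99b. Obp28a had a log2 difference of 1.12 between regimes that was not called.

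**Figure D2:**
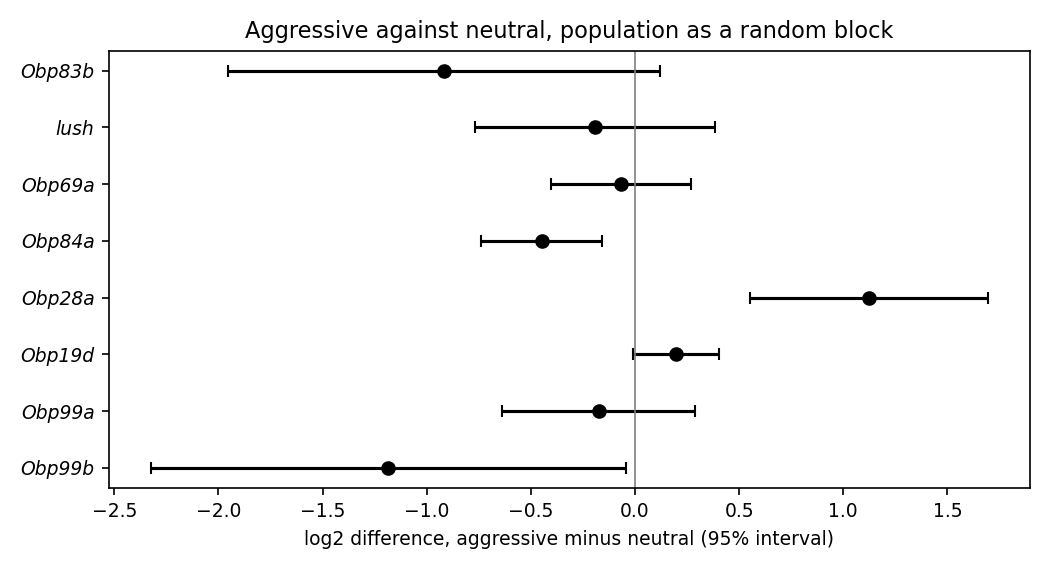
Log2 difference, aggressive minus neutral, of the 8 probe sets with 95% intervals from limma with population as a random block and no filter (6 arrays per regime). The widest intervals are those of Obp99b and Obp83b, whose populations within a regime lie far apart.

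Among the antennal genes, Obp83b (probe set 143614_at), also called OS-E, encodes a carrier of the trichoid and intermediate sensilla and is the close relative and neighbour of Obp83a. Its signal on the aggressive I arrays was 205, 132 and 116. On the aggressive II arrays it was 1209.8, 997 and 1252, on the neutral I arrays 1106, 1063 and 899, and on the neutral II arrays 913, 724 and 1089.7. Only aggressive I was low, every array of it below all 9 others, while aggressive II overlapped both neutral populations. Across all probe sets that are not controls, 1.63% had their aggressive I arrays below the other 9.

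The mean of aggressive I was 151 ± 47.2 (SD, n = 3) and that of aggressive II 1153 ± 137, while neutral I had 1023 ± 109 and neutral II 909 ± 183. Of the 12 signals 3, those of aggressive I, lie within the range of the mouse and yeast controls, so no fold against that level is given, and the log2 differences depend on the pseudocount. On the log2 scale the difference of aggressive I minus neutral I was -2.13 (SE 0.17, limma adjusted p = 0.000324, background 0.394% called) and that of aggressive I minus neutral II -2.01 (adjusted p = 0.000232, background 1.17%). Over 20 alternatives the first ran from -2.72 to -1.56 and the second from -2.59 to -1.46, called in all. These comparisons share the aggressive I arrays. Aggressive II stood higher than aggressive I by 2.31 (SE 0.17, adjusted p = 7.14e-05, background 0.585%).

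The other 3 populations of Obp83b, ordered aggressive II, neutral I, neutral II from high to low, did not differ beyond their spread. The log2 difference was 0.18 for aggressive II minus neutral I (95% interval -0.20 to 0.55, limma adjusted p = 0.836) and 0.29 for aggressive II minus neutral II (-0.080 to 0.67, adjusted p = 0.659). It was -0.12 for neutral II minus neutral I (-0.49 to 0.26, adjusted p = 0.893). Pooled by regime the log2 difference was -0.92 (SE 0.47, 95% interval -1.92 to 0.085, limma adjusted p = 0.775), and without aggressive I it was 0.24 (adjusted p = 0.557), so the sign rests on aggressive I.

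In bulk heads, fewer cells of a type and less RNA per cell cannot be told apart. The antennal genes were therefore set beside Obp83b. Os-C, an olfactory-specific antennal gene, had signals from 671 to 825 in aggressive I and from 958 to 1749.5 for aggressive II. Neutral I ranged from 1099.9 to 1415 and neutral II from 1235 to 1631. Its aggressive I arrays were thus also below the other 9, but by less, with log2 differences of -0.64 from neutral I (SE 0.21, limma adjusted p = 0.245) and -0.88 from neutral II (adjusted p = 0.0907), neither called. The chemosensory protein gene a10 was at -0.14 and -0.17 in these comparisons (SE 0.24), and the antennal dehydrogenase gene Antdh at 0.0061 and -0.13 (SE 0.14).

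Of the 3 filtered antennal genes, 0 were called in any of the 8 limma comparisons, and at most 2 had an unadjusted p under 0.05 in a comparison, that of aggressive II minus aggressive I, where 12.9% of all probe sets did. The antennal list summed to 6948 to 8220 per aggressive I array and 8825 to 9665 per aggressive II array. The sums were 7304 to 9471 for neutral I and 7364 to 8467 for neutral II. Neutral I overlapped both aggressive populations, and neutral II overlapped aggressive I and lay below aggressive II. Its part in the Obp83b result was not tested. Signal of 18S ribosomal RNA on the middle probe set was 17640, 38318 and 16618 in aggressive I, against 5894 to 16192 on the other 9 arrays, a narrow gap. On the 3′ probe set it was 8959, 32732 and 10525.7 in aggressive I, which overlapped neutral II, where the highest array had 14824. Within aggressive I the array with 38318 had an Obp83b signal of 132, between the other 2. All 3 lie within the range of the mouse and yeast controls. The part of the 18S signal in the Obp83b result was not tested. The GAPDH 3′ to 5′ signal ratio, a sign of RNA integrity, overlapped, at 4.18 to 5.03 in aggressive I and 3.04 to 4.79 elsewhere.

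**Figure D3:**
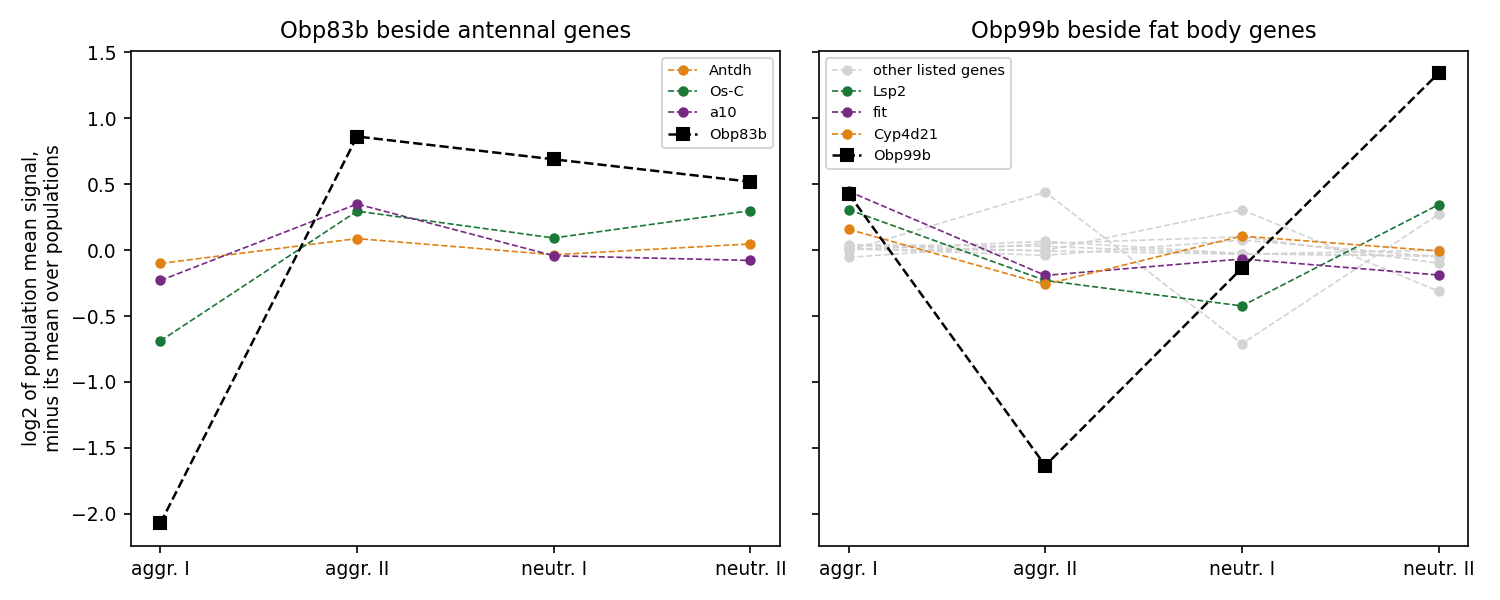
Log2 of each population's mean signal, minus the gene's mean over the 4 populations, for Obp83b with the 3 filtered antennal genes (left) and Obp99b with the 10 filtered fat body probe sets (right). Dashed lines only join the values of a gene. Os-C is lowest in aggressive I as Obp83b is, by less, and Lsp2 is high in aggressive I and neutral II.

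Of the remaining antennal carriers, lush, Obp69a, Obp84a and Obp28a were dim. The lush protein is needed in trichoid sensilla for the response to cis-vaccenyl acetate, a male pheromone that acts on courtship and fighting. Signal of lush ran from 58.7 to 264 with a median of 150 over the 6 aggressive arrays, against 81.7 to 350 with a median of 191 over the 6 neutral arrays. The regimes overlapped, and within a population the arrays varied with a median CV of 54.7%. Its log2 difference, aggressive minus neutral, was -0.19 (95% interval -0.77 to 0.38, limma adjusted p = 0.930), and it ran from -0.32 (without neutral I array 2) to -0.064 (without neutral I array 3) when single arrays were left out. Obp69a, another antennal carrier, ranged from 252 to 496 with a median of 313 on aggressive arrays, against 259 to 535 with a median of 359 on neutral arrays, and its log2 difference was -0.069 (-0.40 to 0.27, adjusted p = 0.959). All 12 signals of lush and 10 of 12 of Obp69a lie within the range of the mouse and yeast controls.

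Obp84a, a carrier of coeloconic sensilla, lay lower still. The aggressive I arrays read 26.6, 46.6 and 31.9, and the aggressive II arrays 31.5, 55.0 and 74.6. In neutral I it was 138, 73.4 and 121, and in neutral II 98.8, 39.7 and 124. The aggressive arrays were mostly lower, with overlap through the second neutral II array and the 73.4 of neutral I. The log2 difference was -0.45 (SE 0.13, 95% interval -0.74 to -0.16) and did not pass (limma adjusted p = 0.424, unadjusted p = 0.00549). It was -0.21 with a pseudocount at the 25th percentile and -1.11 with a pseudocount of 1, was below 0 in all 25 alternatives and was called in 0. With 1 mean per population the SE of this difference was 0.15 (limma adjusted p = 0.850). All 12 signals lie within the range of the mouse and yeast controls.

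Obp28a, which encodes an abundant antennal carrier also found in taste sensilla, was the 1 gene of the 8 whose regimes did not overlap. The aggressive I arrays read 439, 666 and 872, and the aggressive II arrays 316, 361 and 272. In neutral I it was 127, 263 and 96.0, and in neutral II 189, 210.2 and 112. Every aggressive array was above every neutral array, the closest values being 272 and 263, and aggressive I was above aggressive II. Of all probe sets that are not controls, 0.444% had all 6 aggressive arrays above all 6 neutral arrays.

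The log2 difference of Obp28a was 1.12 (SE 0.26, 95% interval 0.55 to 1.69) but did not pass over 13966 probe sets (limma adjusted p = 0.264, unadjusted p = 0.00098). With 1 mean per population its SE was 0.32 (limma adjusted p = 0.826). The difference was 0.77 with a pseudocount at the 25th percentile and 1.53 with a pseudocount of 1. It passed in 1 of 25 alternatives, without aggressive II (log2 difference 1.57, adjusted p = 0.0275), and was 0.68 without aggressive I (adjusted p = 0.264). In the 6 population comparisons without the filter, which share arrays, 0 calls were made by limma, and the smallest adjusted p was 0.0829. In 4 of them Obp28a had an unadjusted p under 0.05, as had 6.64% to 9.6% of all probe sets per comparison. The background called at the adjusted threshold was 0.15% for aggressive I minus neutral I and 0.308% for aggressive I minus neutral II. It was 0.122% for aggressive II minus neutral I and 0.301% for aggressive II minus neutral II, and within regimes 0.193% (aggressive) and 0.115% (neutral). Of its 12 signals, 10, among them all 6 neutral ones, lie within the range of the mouse and yeast controls, so no fold is given. The bacterial spike-in controls had geometric means from 13483 to 16822 on the aggressive arrays (median 15287), against 11818 to 14338 on the neutral arrays (median 12543), ranges that overlap. Their part in the Obp28a values was not tested.

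Obp19d, a carrier of antennal and taste sensilla, was bright on every array. The aggressive I arrays read 135392, 145156 and 139128, and the aggressive II arrays 138404, 127692 and 115491. In neutral I it was 112976, 118596 and 139923, and in neutral II 116694, 108988 and 110575. Aggressive I lay above neutral II on every array, while the third neutral I array and the third aggressive II array made the regimes overlap. The log2 difference between regimes was 0.20 (SE 0.094, 95% interval -0.0041 to 0.40, limma adjusted p = 0.747), and it was above 0 in all 27 alternatives, from 0.086 to 0.29, and called in 0. None of its 6 population differences, from -0.19 to 0.34 on the log2 scale, was called by limma. For aggressive I minus neutral II the unadjusted p was under 0.05, as it was for 12.6% of all probe sets.

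Outside the antennal group, Obp99b (probe set 150837_at), which has also carried the name tsx for its sex-specific expression in the fat body of the male head, varied most. The aggressive I arrays had signals of 37643, 41907 and 39022 and the aggressive II arrays 8577, 9559 and 10244. In neutral I it was 25317, 27058 and 27805, and in neutral II 76454, 75979 and 70990.2. Each population had a level of its own, in the order neutral II, aggressive I, neutral I, aggressive II from high to low, with no overlap between any pair. Such separation of all 4 populations was seen in 0.136% of the probe sets that are not controls.

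Population means were 39524 ± 2176 (SD, n = 3) in aggressive I and 9460 ± 838 for aggressive II, with 26726.5 ± 1277 for neutral I and 74474 ± 3027 for neutral II, a 7.87-fold range with a median CV of 5.14% within populations. The log2 difference of aggressive II was -3.0 from neutral II (SE 0.10, limma adjusted p = 3.87e-08, background 0.764% called), -1.47 from neutral I (adjusted p = 3.10e-05, background 0.298%) and -2.10 from aggressive I (adjusted p = 2.90e-06). Neutral II was higher than neutral I by 1.52 (adjusted p = 2.91e-05, background 0.274%). Aggressive I differed by -0.90 from neutral II (adjusted p = 0.00174) and by 0.63 from neutral I (adjusted p = 0.0257).

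Of the 8379 probe sets, 1 passed in all 6 of these comparisons, which share arrays. It was that of Obp99b itself, so the share of 0.0119% is no separate background. Without the filter Obp99b was called by limma in 5 of the 6, with an adjusted p of 0.0879 for aggressive I minus neutral I. The difference of aggressive I from neutral I was the least secure. It kept its direction in all 21 alternatives, with log2 differences from 0.51 to 0.66, but missed the threshold in 11. Among these were fits without aggressive I arrays 1, 2 and 3 (limma adjusted p = 0.0598, 0.0914 and 0.0896), without aggressive II array 2 (0.0539) and without neutral I arrays 1, 2 and 3 (0.120, 0.0716 and 0.0766). The other 5 comparisons were called in all 21.

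**Figure D4:**
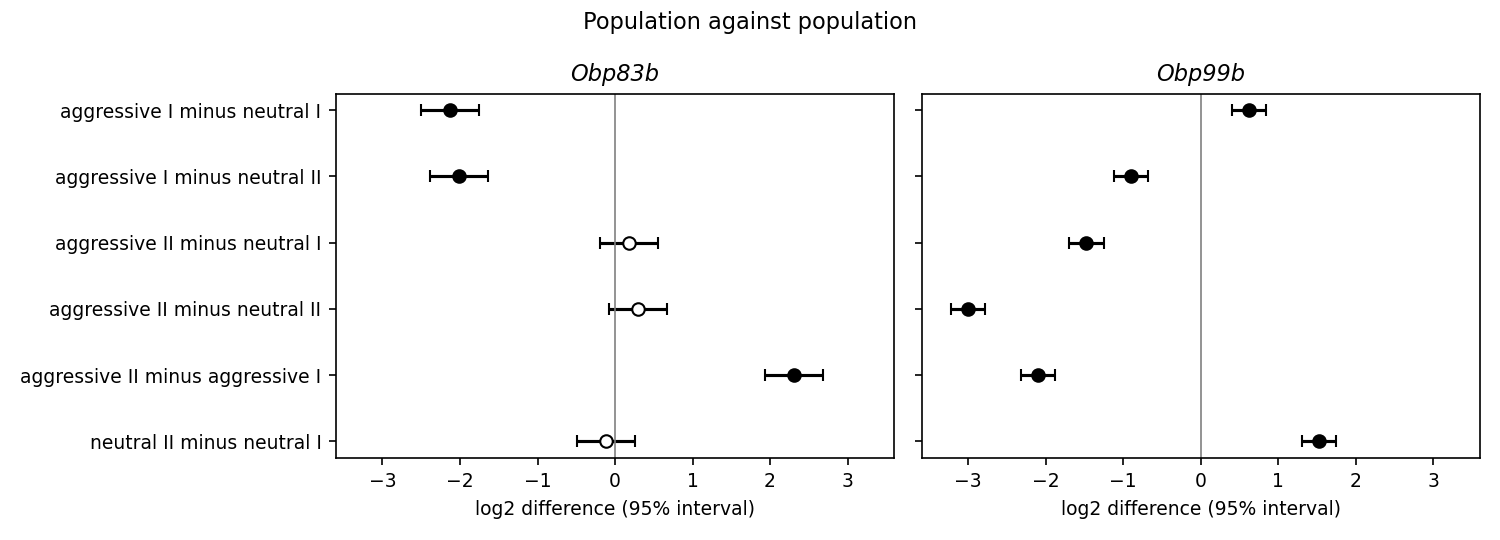
Log2 differences of Obp83b and Obp99b in the 6 comparisons of populations, with 95% intervals from limma with a fixed mean per population (3 arrays each). Filled points passed at an adjusted p under 0.05 and open points did not. For Obp83b every filled point involves aggressive I, and for Obp99b all 6 are filled and their signs differ.

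The sign of the Obp99b difference depended on which populations were set together. Aggressive I minus neutral I was above 0, and the other 3 aggressive minus neutral differences were below 0. The difference between the pairs numbered alike, aggressive I minus neutral I less aggressive II minus neutral II, was 3.63 on the log2 scale (SE 0.14, limma adjusted p = 3.45e-07, background 0.394%), and for Obp83b it was -2.43 (SE 0.24, adjusted p = 0.000976). Pooled by regime the log2 difference of Obp99b was -1.18 (SE 0.51, 95% interval -2.28 to -0.085, limma adjusted p = 0.711). This difference had an SE of 0.77 with 1 mean per population, more than the random block allowed for. It was -2.24 without aggressive I (adjusted p = 0.0673), -0.13 without aggressive II (0.907), -1.95 without neutral I (0.332) and -0.42 without neutral II (0.887).

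Genes of the fat body were set beside Obp99b. Of 10 filtered probe sets of 9 genes on the list, Lsp2 and fit were called in at least 1 comparison. Lsp2, a storage protein gene, had signals from 86603 to 91081 in aggressive I and from 56479.5 to 65231 for aggressive II. Neutral I ranged from 48785 to 58329.7 and neutral II from 86511 to 95279.8. It was high in aggressive I and neutral II and low in aggressive II and neutral I. In 4 of the 6 comparisons it was called in the direction of Obp99b: aggressive I minus neutral I (log2 difference 0.80, limma adjusted p = 0.00841), aggressive II minus neutral II (-0.61, 0.0282), aggressive II minus aggressive I (-0.59, 0.0428) and neutral II minus neutral I (0.82, 0.00718). It was not called for aggressive II minus neutral I (0.21, limma adjusted p = 0.660), the opposite direction to Obp99b there. Nor was it called for aggressive I minus neutral II (-0.019, adjusted p = 0.965), where Obp99b was at -0.90.

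The fat body gene fit, named for female-specific expression, was higher in aggressive I than in neutral II (0.63, limma adjusted p = 0.0458), the opposite direction to Obp99b there. It was lower in aggressive II than in aggressive I (-0.67, adjusted p = 0.0498). Cyp4d21, which like Obp99b is known for male-biased fat body expression, averaged 15959 and 11945 in the aggressive populations I and II, beside 15401 and 14236 in the neutral ones, and was called in 0 of the 8 limma comparisons. The list summed to 259425 to 269624 per aggressive I array and 217136 to 246071 per aggressive II array. The sums were 215765 to 233524 for neutral I and 243397 to 265216 for neutral II. Lsp2, which varied as given above, is part of these sums. The brighter probe set of apolpp, also on the list, averaged 92587 and 96671 in the aggressive populations I and II. In the neutral populations I and II it averaged 90643.5 and 89329. Over the 10 filtered probe sets the median log2 difference ran from -0.073 to 0.13 in the 6 population comparisons. That of Obp99b ran from -3.0 to 1.52. The part of the fat body list in the Obp99b result was not tested. For the gene takeout no probe set with 1 gene was found, and no value is given.

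Obp99a, encoded in the same cytological region as Obp99b, did not follow it. The aggressive I arrays read 1372, 3459.9 and 2392, and the aggressive II arrays 2479, 1959 and 2216. In neutral I it was 2563, 2739.6 and 1617, and in neutral II 3159, 2744 and 2868.5. The populations overlapped, and aggressive I had the widest spread of the 4, with an SD of 1044. The regime log2 difference was -0.17 (SE 0.22, 95% interval -0.65 to 0.30, limma adjusted p = 0.923). Without aggressive I array 1 it was -0.041 and without neutral I array 3 it was -0.31. Its 6 population differences lay between -0.42 and 0.41, with 0 called and 0 at an unadjusted p under 0.05.

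The nearest genes in RefSeq order with a probe set, a set chosen after the values were seen, were 6 around Obp99b and 6 around Obp83b. Around Obp99b, 3 of 6 probe sets passed the filter, those of Obp99c, CG15506 and Pcd, and around Obp83b 4 of 8, those of ECSIT, side-III, Rm62 and CtsL3. None of these 7 was called by limma in any of the 8 comparisons, and the smallest adjusted p among them was 0.147, for Pcd. Obp99c averaged 108453 and 120600 in the aggressive populations I and II, beside 104773 and 105893 in the neutral ones. The population steps of Obp99b were thus not called in its 3 neighbours that passed the filter, and the others were not tested.

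Of other odorant-binding protein genes, 22 outside the Obp56 group had a probe set of their own, and 8 passed the filter. By limma 0 of these 8 were called in any of the 8 comparisons, with 1 at an unadjusted p under 0.05 between regimes. All 8 regime differences were above 0, with a median log2 difference of 0.13 and a range from 0.011 to 0.26, beside a median of 0.0065 over all probe sets, and Obp19d at 0.20 lay within that range. Medians of the marker lists ran from -0.11 for neuron markers to 0.14 for muscle markers, with eye markers at 0.13. A shift particular to this family was not tested. Of the 5 filtered Obp56 genes, Obp56a was called lower in aggressive heads (-1.71, limma adjusted p = 0.00631), and their median log2 difference was -0.13.

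The genes most like Obp99b and Obp83b were sought by the root mean square difference between log2 profiles over the 12 arrays, each centred on its own mean, among 12435 named probe sets. Nearest to Obp99b were BomS4, an immune-induced bomanin peptide gene (0.49), CG16926 (0.60) and CG8661 (0.60), where the median over all was 1.13. BomS4 averaged 13084 and 7048 in the aggressive populations I and II, beside 11260.4 and 51310.2 in the neutral ones. It shared the extremes, aggressive II lowest and neutral II highest, but not the size of the middle steps. Nearest to Obp83b were Tlk, Tousled-like kinase (0.35), Sos, an activator of Ras (0.43), and CG44774 (0.49), where the median was 1.02. Sos averaged 464 and 1408 in the aggressive populations I and II, beside 1347 and 1194 in the neutral ones. All 3 were lowest in aggressive I, and Tlk and CG44774 did not pass the filter.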

How the data were processed

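The deposited values are intensities, 1 MAS5 signal per probe set and array on a linear scale, per the submitters' processing notes, which name no version. From the values, the authors' arrays share a trimmed mean near 2500, leaving out 2% at each end, so differences in total RNA are not measured. Detection calls and single probes were not analysed here.

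Of 13966 probe sets, 12443 had 1 gene in the platform annotation, of which 12394 matched RefSeq by Entrez identifier (Release 6 plus ISO1 MT, used for names and neighbours). The pseudocount of 94.6 is the 10th percentile of all intensities. Tests used limma 3.58.1 with statmod 1.5.0 in R 4.3.3. The regime fit had population as a random block (consensus correlation 0.0645, or 0.0112 in the fit without the filter), 2 populations per regime. This correlation is low and shared by all probe sets, so arrays of a population counted as nearly separate. The 6 population comparisons and the contrast of pairs had a fixed mean for each population and all 12 arrays. The code was tested on simulated data.

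Members and lists were chosen with earlier results of these data known. The rule for named genes was every listed gene, the 3 nearest profiles to the 2 members with the widest range of population means, list genes called in any comparison, and Orco, Snmp1 and takeout. Alternatives covered pseudocount, centring, normalization, filter, variance model, population error, the replicate number and left-out arrays or populations.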

Additional observations from a re-analysis of the deposited data

Results flagged for a closer look

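In Obp99b and Obp83b the aggressive minus neutral difference itself differed between the population pairs numbered alike, by a limma contrast over all 12 arrays. For Obp99b the contrast of pair I less pair II was 3.63 on the log2 scale (adjusted p = 3.45e-07), since aggressive I stood above neutral I while aggressive II stood below neutral II. For Obp83b it was -2.43 (limma adjusted p = 0.000976), since aggressive I alone was low. The error of both is the spread between arrays of a population, and the pairing of populations rests only on their numbers.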

How the results depend on the processing

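Between regimes the count of called genes stayed at 0 in 26 of 27 alternatives and was 2 with fixed population means (Obp99b, adjusted p = 7.36e-06, and Obp83b, 0.00356), which take the error from arrays alone. Leaving out 1 array at a time gave 0 throughout. For aggressive I minus neutral I the count of 2 became 1 with quantile normalization (27 probe sets called in all), no filter (21), a filter at the 60th percentile (40), the replicate number as a block (16) and without both the second aggressive I and the third neutral I array (16), an alternative chosen after seeing the data because these arrays correlated least with the others. Without single arrays it ran from 1 to 2. With the stricter filter, which leaves Obp83b out of the test, the count was also 1 for aggressive I minus neutral II, for aggressive II minus aggressive I and for the contrast of pairs, each 2 otherwise, and single arrays left these unmoved. Among single genes between regimes, the sign turned for Obp83b without aggressive I (0.24), for Obp69a without neutral I (0.041) or without neutral I array 3 (0.012, the range without single arrays being -0.15 to 0.012) and for Obp99a without neutral II (0.030), and Obp83b turned for neutral II minus neutral I without neutral II array 2 (0.0069, range without single arrays -0.24 to 0.0069). None of these was called. The replicate numbers did not pair the arrays: deviations of same-numbered arrays correlated from -0.078 to 0.092 over 18 pairs, and 4 of 12 arrays correlated best with their own number. The replicate block changed 1 call, Obp99b in aggressive I minus neutral I (adjusted p = 0.0704). With 1 mean per population, 2 against 2, limma called 0 of the genes. Over all probe sets, 16 were called between regimes in the fit reported. The count was 68 with fixed population means, 35 with trended and robust variance, 24 with the larger pseudocount, 25 with the stricter filter, 10 without a filter, 7 with the replicate block and 0 with 1 mean per population. It was 33 without aggressive I, 40 without aggressive II, 26 without neutral I and 2 without neutral II, and ran from 7 to 21 without single arrays.

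The limits are few populations, 2 per regime, dim signals for lush, Obp69a, Obp84a and Obp28a without detection calls, and 1 probe set per gene, so a change in the probed sequence and a change in transcript level cannot be told apart.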
